A study of Mus musculus with 6 samples.

Results

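The Gimap genes encode GTPases of immunity-associated proteins, and the mouse genes Gimap1, Gimap3, Gimap4, Gimap5, Gimap6, Gimap7, Gimap8 and Gimap9 were followed here in haematopoietic stem cells (HSCs). They were chosen by gene name, and all 8 were found among the 18368 genes of the deposited count table and the 35275 genes of the deposited FPKM table. FPKM is a read count scaled by the length of the gene and by the reads of the library. RNA had been sequenced from about 2000 sorted adult bone marrow HSCs per library. The tested libraries were 3 from Ramp1 mutant mice, with the genotype written Ramp-/- in the labels, and the others were 3 from Ramp1+/+ mice, called wild type. Ramp1 encodes the accessory subunit of the receptor for the neuropeptide CGRP, and the study's title concerns pain-sensing nerves and HSC mobilization. Strain, allele and treatment are not given in the sources used here. The labels do not tie libraries to individual mice, so the spread behind each p-value is that between libraries and may be technical in part. Y-linked reads, given below, differ within each group, so its libraries do not all come from the same mice.

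GIMAP proteins bind guanine nucleotides and sit on intracellular membranes such as those of lysosomes and the endoplasmic reticulum. They are best known from lymphocytes, where several of them keep resting T and B cells alive and at least one promotes their death. In mice, loss of Gimap5 depletes lymphocytes and also impairs HSCs.

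The libraries held 22796771 to 26734561 counted reads. The targeted gene separated the groups, with 3.53, 2.65 and 1.35 FPKM of Ramp1 in mutant HSCs, against 91.4, 88.3 and 91.0 FPKM in wild-type HSCs. HSC markers were present in every library: the 10 listed markers, among them Kit, Procr and Hlf, summed to between 1214 and 1522 FPKM in mutant and between 1178 and 1432 FPKM in wild-type libraries. Replicate 1 of each group had reads of the Y-linked genes Ddx3y, Uty, Kdm5d and Eif2s3y, 6137 in the mutant and 6527 in the wild-type library. The other libraries had at most 2 such reads, so sex and replicate 1 cannot be told apart.

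The 8 genes form a cluster on mouse chromosome 6. In the authors' coordinates on mm10 it runs from Gimap8 (48647234 to 48660875) through Gimap9 (48676129 to 48679114), Gimap4 (48684549 to 48692060), Gimap6 (48701582 to 48708225), Gimap7 (48718621 to 48724636), Gimap1 (48739054 to 48743790) and Gimap5 (48746197 to 48754210) to Gimap3 (48765089 to 48766519). Gimap6 and Gimap3 lie on the minus strand and the other members on the plus strand. The first and last gene starts are 117.9 kb apart. All 8 are annotated as protein-coding in the authors' table.

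What makes these genes a family is the GTP-binding domain, whose P-loop holds the phosphates of the nucleotide. The P-loop codons were located in the coding sequences of GENCODE M21 (GRCm38, the assembly of mm10) and are shown because they are the signature shared by every member. Capitals mark the glycine codon that opens the motif and the closing glycine, lysine and serine codons.
Gimap1: GGCaggactgggaccGGCAAGAGT
Gimap3: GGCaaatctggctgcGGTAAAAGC
Gimap4: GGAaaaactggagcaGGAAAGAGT
Gimap5: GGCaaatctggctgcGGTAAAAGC
Gimap6: GGGaaaacaggaagcGGGAAAAGT
Gimap7: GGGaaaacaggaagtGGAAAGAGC
Gimap8, loop 1: GGGaaacagggcgcaGGCAAAAGT
Gimap8, loop 2: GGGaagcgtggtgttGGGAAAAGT
Gimap8, loop 3: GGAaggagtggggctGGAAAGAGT
Gimap9: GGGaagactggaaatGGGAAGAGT
Gimap8 held 3 such loops in a coding sequence of 2067 bases, and each other member held 1 in 876 to 987 bases. Gimap3 and Gimap5 had the same loop, letter for letter.

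That identity extended well beyond the loop. Over aligned coding bases, Gimap3 and Gimap5 matched at 90.3%, while the other 27 pairs of members matched at 55.9% to 66.7%. The longest exact stretch common to the transcripts of Gimap3 and Gimap5 was 140 bases, against at most 17 bases for any other pair. It spans coding bases 175 to 314 of Gimap3 and 187 to 326 of Gimap5, and is shown because a read that falls inside it cannot be placed in either gene.
Shared by Gimap3 and Gimap5: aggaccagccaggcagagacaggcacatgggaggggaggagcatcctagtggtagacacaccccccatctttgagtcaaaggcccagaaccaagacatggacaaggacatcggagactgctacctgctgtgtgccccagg
Of the 857 windows of 50 bases in the Gimap3 coding sequence, 190 also occur in Gimap5, or 22.2%. No transcript of another member shared a window of that length with any member. Read length, strand and the handling of multiply placed reads are not given in the sources used here, so the values of both Gimap3 and Gimap5 are uncertain in this respect. The authors' model of Gimap3 also counts 906 bases, where GENCODE M21 lists 2577 exonic bases for it.

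Overlapping annotation touches other members too. The exons of protein-coding Gimap1 transcripts share 201 bases with Gimap1os, a noncoding gene on the opposite strand, and 198 bases with Gm28053, a same-strand gene that runs from Gimap7 into Gimap5. In all, 11.7% of the exonic bases of Gimap1 are shared with another gene, against 5.97% for Gimap7 and 7.83% for Gimap5. Gimap4, Gimap6, Gimap8 and Gimap9 share none.

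Gimap transcripts were present in HSCs of both genotypes. Its 8 genes summed to 465, 472 and 374 FPKM in mutant replicates 1 to 3, against 480, 438 and 475 FPKM in wild-type replicates 1 to 3. On the CPM scale, which is not scaled by gene length, the family took 989, 999 and 792 in mutant libraries and 1044, 916 and 1003 in wild-type libraries. Mutant replicate 3 was the lowest library on both scales. Gimap1 and Gimap6 together made up 69.6% to 71.85% of the FPKM sum in mutant libraries and 70.8% to 74.4% in wild-type libraries.

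By mean FPKM over the 6 libraries the order was Gimap1 (177), Gimap6 (145), Gimap5 (55.2), Gimap9 (34.9), Gimap3 (17.0), Gimap8 (12.4), Gimap4 (6.62) and Gimap7 (2.77). Gimap1 lay at the 98.2nd and Gimap7 at the 44.5th percentile of the genes in the count table. Most neighbours in this order were separated by more than their spread, since the lowest library of the higher gene lay above the highest library of the next. Gimap1 and Gimap6 overlapped in range, although Gimap1 was the higher of them in 6 of 6 libraries. Gimap3 and Gimap8 also overlapped, with Gimap3 higher in 4 of 6 libraries. Before scaling by length, Gimap6 had 9316 to 13104 reads and Gimap1 5581 to 7035. The authors' model of Gimap1 counts 1493 bases, where its protein-coding transcripts in GENCODE M21 hold 1711 exonic bases. For Gimap6 these are 3179 and 3192 bases, so the order of Gimap1 and Gimap6 may depend on the gene model.

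**Figure D1:**
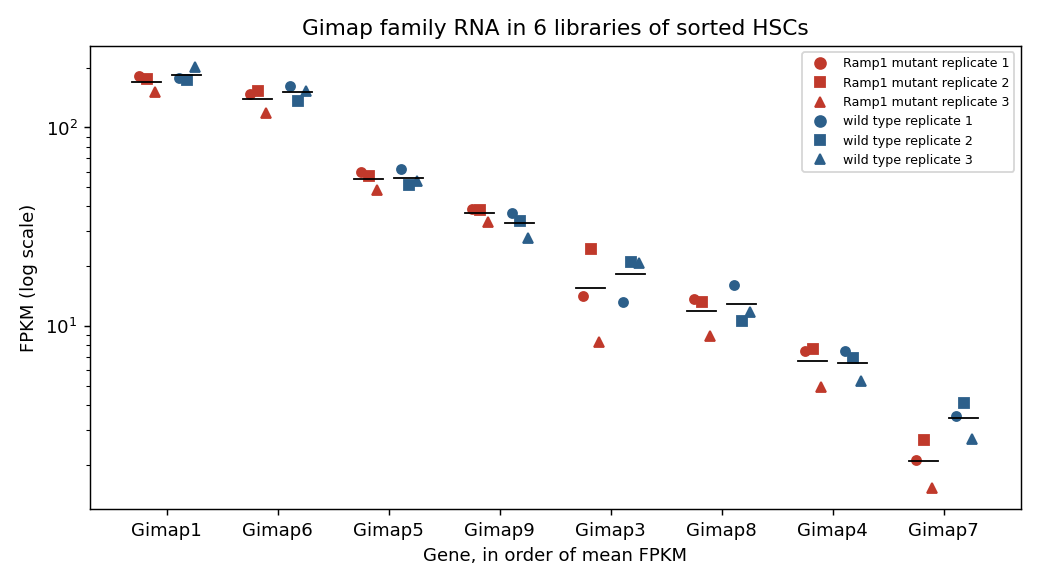
FPKM of each Gimap gene (log scale) in the 6 libraries, with Ramp1 mutant libraries in red at the left and wild-type libraries in blue at the right of each gene. Points are libraries, marker shapes are replicate numbers and black lines are group means. The genes span from 2.77 FPKM for Gimap7 to 177 FPKM for Gimap1 on average, and the genotypes overlap for each gene except Gimap7.

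No member differed between genotypes at the threshold used. With edgeR's quasi-likelihood test, 0 of 8 members passed a Benjamini-Hochberg adjusted p of 0.05 over all 14443 genes tested, where 0.0208% of all genes passed, 3 in number (0.00692% higher and 0.0138% lower in mutant HSCs). Without adjustment, a p under 0.05 was likewise reached by 0 of 8, against 3.99% of all genes (2.28% higher and 1.7% lower), and DESeq2 and limma also called 0 of 8 after adjustment. The adjusted p was 0.999 for all 8, and the interval of each difference included 0. Values were below wild type for 6 members and above it for 2, where 49.9% of all genes lay below. The median log2 fold change, mutant over wild type, was -0.10 for the members and 0.00 for all genes tested. Exact two-sided permutation tests on the FPKM of single members other than Gimap7 gave p between 0.3 and 0.9. In bulk RNA, fewer cells of a type and less RNA per cell cannot be told apart.

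Gimap1, which mice need for mature T and B cells, was the most abundant member by FPKM. It had 182, 176 and 151 FPKM in mutant HSCs, against 178, 174 and 202 FPKM in wild-type HSCs. The groups overlapped, and mutant replicate 3 was the lowest library. Its log2 fold change was -0.12 (SE 0.10, 95% interval -0.36 to 0.11), an interval that holds no change larger than 1.28-fold. The log2 fold change was -0.058 without mutant replicate 3 and -0.068 without wild-type replicate 3. Reads in the bases that Gimap1 shares with Gimap1os and Gm28053 may be counted in either gene or in none. Its antisense neighbour Gimap1os had 21.9, 18.8 and 12.5 FPKM in mutant libraries and 22.2, 19.3 and 19.0 FPKM in wild-type libraries (log2 fold change -0.19, SE 0.20).

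Gimap6, whose human protein binds the autophagy protein GABARAPL2, came next. It had 147, 152 and 118 FPKM in mutant HSCs, against 163, 136 and 152 FPKM in wild-type HSCs, again with mutant replicate 3 lowest. The log2 fold change was -0.11 (SE 0.12, 95% interval -0.37 to 0.16). It was -0.18 without mutant replicate 2, -0.012 without mutant replicate 3 and -0.054 without wild-type replicate 1. The partner gene Gabarapl2 averaged 47.3 ± 1.72 FPKM in mutant and 46.9 ± 2.96 FPKM in wild-type HSCs (SD, n = 3 each).

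Gimap5, the lysosomal member whose loss impairs mouse HSCs, was the member closest to no difference. It had 59.8, 56.8 and 48.2 FPKM in mutant HSCs, against 61.6, 51.5 and 53.6 FPKM in wild-type HSCs. The groups overlapped. The log2 fold change was -0.01 (SE 0.12, 95% interval -0.28 to 0.25), so changes larger than 1.22-fold in either direction lie outside the interval. Its sign was not fixed by the data, with 0.061 without mutant replicate 3 and -0.061 without mutant replicate 1.

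Gimap3, which cooperates with Gimap5 in keeping mouse T cells alive, was the most variable member. It had 14.1, 24.4 and 8.32 FPKM in mutant HSCs, against 13.3, 21.1 and 20.7 FPKM in wild-type HSCs. Its highest and its lowest library, 2.93-fold apart, were both mutant. Its coefficient of variation was 52.1% among mutant and 24.1% among wild-type libraries, and 187 reads in the lowest library carry a counting error of 7.31%. Set against its near-copy, Gimap3 had 11.0, 19.9 and 8.01 reads per 100 Gimap5 reads in mutant replicates 1 to 3, against 10.0, 19.0 and 18 in wild-type replicates 1 to 3. The log2 fold change of Gimap3 was -0.23 (SE 0.39, 95% interval -1.13 to 0.67), which leaves changes up to 2.19-fold inside the interval. It was -0.72 without mutant replicate 2 and 0.062 without mutant replicate 3.

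Gimap9, which lies between Gimap8 and Gimap4, had the highest fold change. It had 39.0, 38.5 and 33.4 FPKM in mutant HSCs, against 37.0, 33.9 and 27.7 FPKM in wild-type HSCs. It was the only member whose lowest library was not mutant replicate 3 but wild-type replicate 3. The log2 fold change was 0.17 (SE 0.14, 95% interval -0.16 to 0.50), and it was 0.053 without wild-type replicate 3.

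Gimap8, the member with 3 P-loops, had 13.7, 13.3 and 8.92 FPKM in mutant HSCs, against 16.1, 10.6 and 11.8 FPKM in wild-type HSCs (log2 fold change -0.10, SE 0.21). Gimap4, which hastens the death of mouse T cells, had 7.49, 7.69 and 4.91 FPKM in mutant HSCs, against 7.46, 6.88 and 5.27 FPKM in wild-type HSCs (log2 fold change 0.03, SE 0.25). The groups overlapped for both genes. Over single left-out libraries the log2 fold change ran from -0.21 to 0.086 for Gimap8 and from -0.11 to 0.20 for Gimap4.

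Gimap7, whose human protein hydrolyses GTP when it dimerises, was the least abundant member and the only member whose groups did not overlap. It had 2.11, 2.65 and 1.52 FPKM in mutant HSCs, against 3.51, 4.12 and 2.70 FPKM in wild-type HSCs. The gap was narrow, since mutant replicate 2 and wild-type replicate 3 lay at 2.65 and 2.70 FPKM. Groups did not overlap for 10.3% of all genes tested (4.32% with mutant lower, 5.99% with mutant higher). The exact permutation test, two-sided, gave p = 0.1 for Gimap7, and with 3 libraries on each side no smaller p is possible. The reads behind these values were 61, 90 and 48 in mutant libraries and 113, 130 and 80 in wild-type libraries, so counting error alone is 14.4% at the lowest. The log2 fold change was -0.72 (SE 0.35, 95% interval -1.53 to 0.10; edgeR unadjusted p = 0.0771, adjusted p = 0.999). The difference was -0.73 between the replicate 1 libraries, which have Y-linked reads, and -0.70 among the libraries without them. The authors' deposited table gives Gimap7 a log2 fold change of -0.723 with an adjusted p of 0.99977, and gives the other 7 members log2 fold changes between -0.239 and 0.164.

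**Figure D2:**
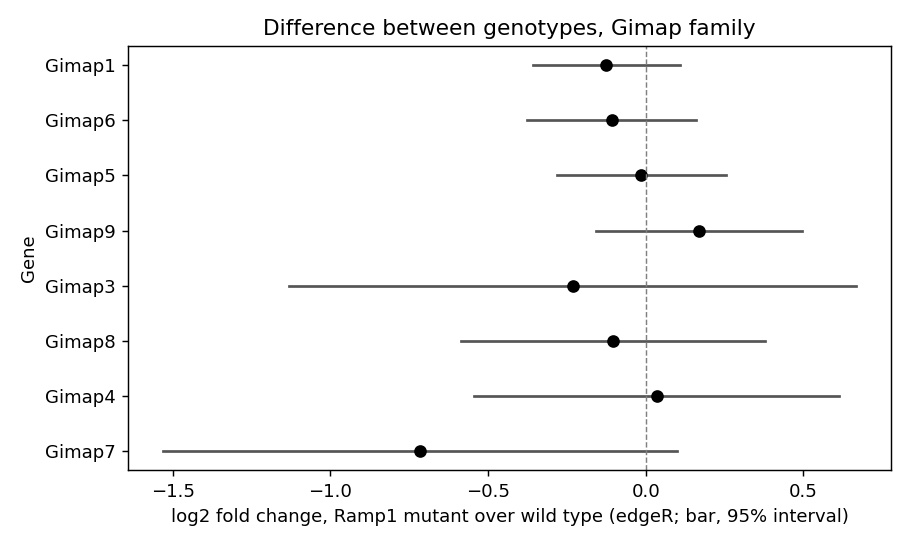
Log2 fold change of each Gimap gene, Ramp1 mutant over wild type, by edgeR on the deposited counts of 3 libraries per group, with bars for the 95% interval. Genes run from the most abundant at the top to the least abundant at the bottom. Each interval includes 0, and the intervals of Gimap3 and Gimap7 are wider than those of Gimap1, Gimap6 and Gimap5.

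The members shared a direction, though not a size, in mutant replicates 2 and 3, and lay on both sides of their mean in the wild-type libraries. Each gene was set against its own mean over the 6 libraries on the log2 CPM scale. All 8 members were below that mean in mutant replicate 3, by a median of -0.33, from -0.04 for Gimap9 to -0.92 for Gimap3. All 8 were above it in mutant replicate 2, by a median of 0.12 but by only 0.0120 for Gimap1 and 0.0265 for Gimap7. In mutant replicate 1, 6 of 8 were above it, by a median of 0.05. That mean includes mutant replicate 3, whose low values raise the deviations of the other libraries. In wild-type replicates 1, 2 and 3, there were 7, 4 and 4 of 8 above their mean, with medians of 0.16, 0.00 and -0.02. Members ran from -0.28 for Gimap3 to 0.39 for Gimap8 in wild-type replicate 1. In wild-type replicate 3 they ran from -0.34 for Gimap9 to 0.36 for Gimap3. The medians over all genes tested were between 0.01 and 0.02 in every library. Mutant replicate 3 was the lowest library for 7 of 8 members, against 17.9% of all genes tested, an observation made after the values were seen on genes that share a locus. Without this library the median log2 fold change of the members was 0.06 in place of -0.10. Without wild-type replicate 1 it was 0.00.

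Mutant replicate 3 also had the lowest FPKM of the HSC markers Kit (260.0) and Hlf (45.8) and the highest sum of neutrophil markers. The 15 listed neutrophil markers, led by S100a8, summed to 184, 881 and 1180 FPKM in mutant replicates 1 to 3 and to 50.5, 342 and 855 FPKM in wild-type replicates 1 to 3, with mutant replicate 3 highest and no marker at 0 in every library. Of the 14 tested, 13 had values above wild type and 0 passed in edgeR, DESeq2 or limma. Mutant replicate 2 had a high neutrophil sum as well, with all members above their mean, Gimap1 by only 0.0120 and Gimap7 by 0.0265. Elane and Mpo were among the neutrophil markers lower in mutant replicate 3 than in mutant replicate 2. They had 0.350 and 3.84 FPKM in mutant replicate 3, against 30.5 and 16.9 FPKM in mutant replicate 2. The 9 macrophage and dendritic markers found, led by Lyz2, summed to 683, 1026 and 1073 FPKM in mutant libraries. In wild-type libraries they summed to 731, 999 and 785 FPKM, so mutant replicate 3 was again highest. Lyz2 itself was highest in mutant replicate 2 (614 FPKM, against 563 FPKM in mutant replicate 3), and Cd74 in mutant replicate 3 (224 FPKM). Erythroid markers, led by the globin genes, summed to 210, 59.7 and 80.8 FPKM in mutant and to 87.6, 65.4 and 12.8 FPKM in wild-type libraries. Megakaryocyte markers, led by Pf4, summed to 213, 127 and 163 FPKM in mutant and to 200, 216 and 164 FPKM in wild-type libraries, with Gp6 at 0. Of 7, 11 and 8 tested genes of these 3 lists, 0 passed in edgeR. Values were above wild type for 6, 7 and 2 of them and below it for 1, 4 and 6. An unadjusted p under 0.05 was reached by 1 macrophage gene, Cd68, the only tested gene of its list that was lower in mutant HSCs (log2 fold change -0.71). It was reached by 2 erythroid genes, higher in mutant HSCs, and by 0 megakaryocyte genes, where 3.99% of all genes reached it. In these 3 lists DESeq2 called 1 gene, the erythroid membrane protein gene Slc4a1, where it called 44 of all 16573 genes it tested. Slc4a1 was low, with 0.607 ± 0.495 FPKM in mutant and 0.0087 ± 0.015 FPKM in wild-type HSCs (SD, n = 3 each). The part of these markers in the low Gimap values was not tested.

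**Figure D3:**
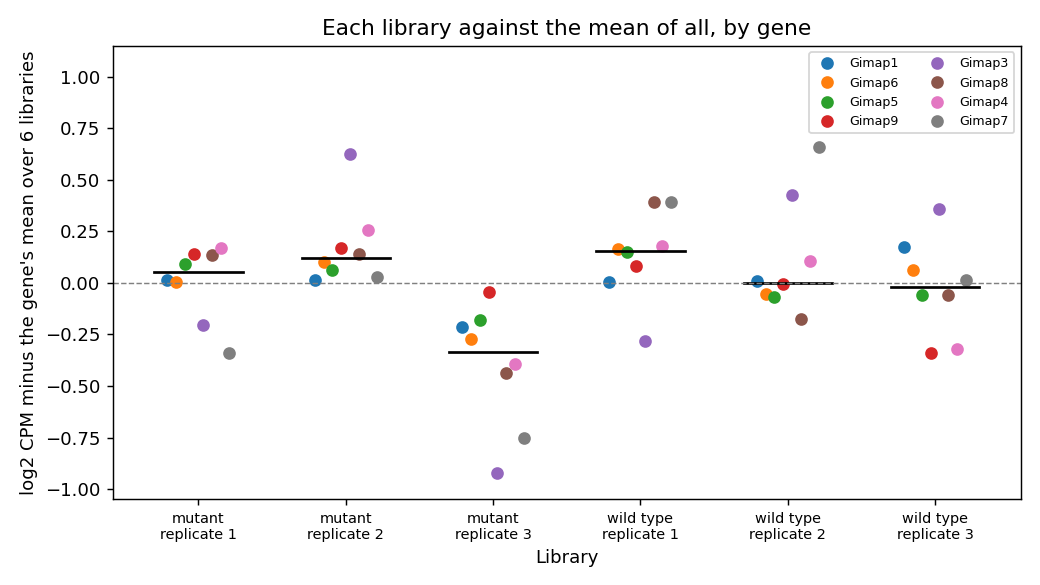
Log2 CPM of each Gimap gene minus its mean over the 6 libraries, with mutant libraries at the left and wild-type libraries at the right. Points are genes and black lines are medians over the 8 genes. Every gene lies below 0 in mutant replicate 3 and above 0 in mutant replicate 2, where Gimap1 (0.0120) and Gimap7 (0.0265) lie close to 0.

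Because GIMAP genes are best known from lymphocytes, markers of these cells were set beside them. Of 22 T and NK cell markers, 15 averaged under 1 FPKM, and Bcl11b, Cd8a, Ncr1 and Themis were at 0 in every library. The T cell receptor subunit Cd3e averaged 0.109 ± 0.0999 FPKM in mutant and 0 FPKM in wild-type HSCs, and Cd3d 0.114 ± 0.149 and 0.129 ± 0.224 FPKM (SD, n = 3 each). The list summed to 103, 68.0 and 90.1 FPKM in mutant and to 116, 105 and 86.1 FPKM in wild-type libraries, carried mainly by Nkg7, Lat and Lck. The 8 tested markers split into 2 above and 6 below wild type, and 0 passed in any of the 3 tools. Lck, a T cell kinase, was the 1 marker with an unadjusted p under 0.05 in edgeR (0.0423; adjusted p = 0.999). It had 6.87, 6.98 and 7.19 FPKM in mutant HSCs, against 9.46, 8.53 and 9.17 FPKM in wild-type HSCs, and the groups did not overlap. Over all genes tested, 3.99% had an unadjusted p under 0.05 in edgeR and 10.3% had groups that did not overlap.

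B cell markers were mostly low as well. The table held 17 genes under 16 of the 18 listed names, since Cr2 has 2 gene identifiers, and of these 12 averaged under 1 FPKM and Pax5 was at 0 throughout. Their sum was 54.0, 107 and 61.4 FPKM in mutant libraries and 46.4, 61.6 and 51.0 FPKM in wild-type libraries, with mutant replicate 2 highest. Cd79b, which encodes a B cell receptor subunit, led the list at 39.2 ± 7.64 FPKM in mutant and 38.2 ± 3.41 FPKM in wild-type HSCs. Of 11 tested, 10 had values above wild type, and 0 passed in edgeR, DESeq2 or limma. Endothelial cells express some GIMAP genes too. The endothelial list summed to between 185 and 220 FPKM in mutant and between 197 and 210 FPKM in wild-type libraries, led by Tie1, Tek and Egfl7. Among its 15 tested genes 4 were above and 11 below wild type, and 0 passed in edgeR, DESeq2 or limma. The VEGF receptor gene Kdr was the 1 of these genes with an unadjusted p under 0.05 in edgeR, where 3.99% of all genes had one. It had 1.74 ± 0.464 FPKM in mutant and 2.97 ± 0.850 FPKM in wild-type HSCs (SD, n = 3 each, edgeR adjusted p = 0.999), and its groups overlapped.

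Genes that act around the family showed no called difference either. The list of GIMAP partners, autophagy adaptors and Bcl2 family genes had 7 of 11 tested members above wild type and 4 below (median log2 fold change 0.04). Bcl2, the survival factor, averaged 9.77 ± 1.81 FPKM in mutant and 10.2 ± 2.30 FPKM in wild-type HSCs. Bax, a death effector of the same family, averaged 38.3 ± 7.68 and 40.4 ± 5.63 FPKM (SD, n = 3 each). None of the 11 had an unadjusted p under 0.05.

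The other immune GTPases, of the interferon-inducible Irg, Gbp and Mx families with Gvin1, a very large inducible GTPase, had values on both sides. Of 17 tested, 8 were above and 9 below wild type (median log2 fold change -0.01), and 0 passed even an unadjusted p of 0.05. Their sum was 402, 529 and 573 FPKM in mutant libraries and 462, 654 and 399 FPKM in wild-type libraries. This order differs from that of the Gimap sum, since mutant replicate 3 was the highest mutant library here and the lowest for Gimap genes. Irgm1, a regulator of autophagy, averaged 58.5 ± 9.14 FPKM in mutant and 60.5 ± 6.33 FPKM in wild-type HSCs.

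Lymphoid priming genes had values on both sides, with 6 of 12 tested genes above and 6 below wild type (median log2 fold change -0.06). The FPKM of the list summed to 198, 206 and 195 in mutant libraries and to 226, 225 and 232 in wild-type libraries, so each mutant sum lay below each wild-type sum. The leading gene Tcf3, a lymphoid transcription factor, averaged 58.6 ± 1.63 FPKM in mutant and 69.2 ± 4.05 FPKM in wild-type HSCs (log2 fold change -0.24, SE 0.09; edgeR adjusted p = 0.999), and Notch1 had 5.44 ± 0.230 and 4.08 ± 0.938 FPKM (SD, n = 3 each). These were the 2 genes of the list with an unadjusted p under 0.05 in edgeR, where 3.99% of all genes had one. After adjustment 0 passed in edgeR, DESeq2 or limma. The lymphocyte genes Rag1, Dntt and Il7r averaged under 1 FPKM in both groups.

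Genes around the cluster showed no called difference. Of 19 other genes in the count table that start within 300 kb of the first or last member, 15 were tested. Values were above wild type for 6 of them and below it for 9. None passed an adjusted p in edgeR, DESeq2 or limma, and 0 had an unadjusted p under 0.05 in edgeR. Tmem176b and Tmem176a, membrane protein genes beyond Gimap3, averaged 442 ± 20.4 and 231 ± 8.64 FPKM in mutant HSCs, against 447 ± 33.3 and 226 ± 22.9 FPKM in wild-type HSCs. Their log2 fold changes were -0.02 and 0.03. The overlapping gene Gm28053 had a log2 fold change of -0.36 (SE 0.53).

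**Figure D4:**
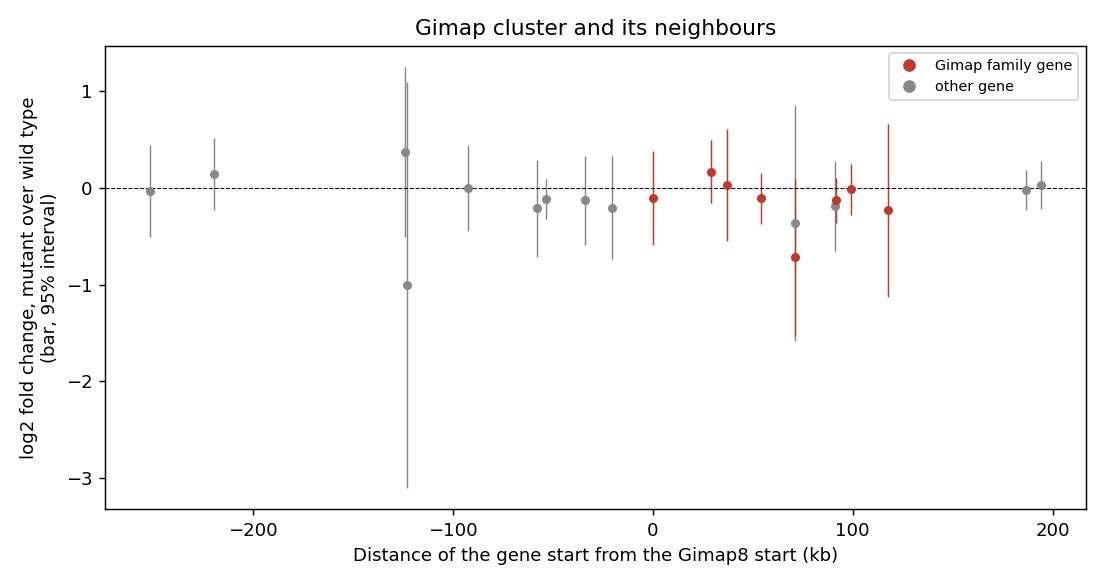
Log2 fold change, Ramp1 mutant over wild type, against the distance of the gene start from the Gimap8 start in kb, for the 8 Gimap genes (red) and the other tested genes averaging at least 1 FPKM (grey). Bars are 95% intervals from edgeR. All intervals shown include 0.

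The genes whose pattern over the 6 libraries lay nearest to the mean Gimap pattern were Naip5, Nol4l, Tm7sf3, Tgfbr2 and Klhl42. They were the 5 nearest of 8892 genes with at least 5 FPKM, by the Euclidean distance between standardized log2 CPM profiles. Their distances were 0.338 to 0.489, where the median gene lay at 3.22. Gimap6 itself lay at 0.879 and Gimap9 at 2.42, so 21.8% of those genes were nearer to the family's mean pattern than Gimap9 was. Tgfbr2, the type II receptor of TGF-beta, averaged 29.2 ± 7.50 FPKM in mutant and 31.2 ± 1.93 FPKM in wild-type HSCs (SD, n = 3 each).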

How the data were processed

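RNA-seq libraries took their genotype groups from the labels. Tools named in the submitters' processing notes are STAR, HTSeq 0.6.1, CASAVA and DESeq2, and the build is mm10; roles are not stated. A table from the authors holds read counts, signal (counts over size factors), FPKM, log2 fold changes and p-values per gene; a deposited FPKM table covers more genes. Per the file headers both name the libraries. The count table holds only genes with reads in mutant replicate 1 or 2. The signal columns were not used.

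The counts were fitted in R 4.3.3 with edgeR 4.0.16 (TMM, filterByExpr, quasi-likelihood F test, two-sided, Benjamini-Hochberg over 14443 genes). Standard errors were derived as log2 fold change over root F. All 8 members passed the filter. DESeq2 1.42.0 and limma 3.58.1 on log2(FPKM + 0.1) were alternatives, as were other scalings, no filter, pseudocounts of 0.01 and 1, Y-linked reads as a covariate, left-out libraries and the replicate block. Intervals of counting error cover counting only.

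Members, lists and tests were chosen with earlier results of these data known. Named genes were the members, Ramp1, neighbours within 300 kb, up to 3 abundant genes of each list and the 5 genes of likest pattern. Procr, Hlf, Slc4a1, Kdr, Gvin1, Cd3e, Cd3d, Bcl2, Bax, Gabarapl2, Notch1, Rag1, Dntt, Il7r, Elane, Mpo and Cd68 were named after their values were seen.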

Additional observations from a re-analysis of the deposited data

How the results depend on the processing

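No member passed the adjusted threshold under any of the 16 alternatives run. The median log2 fold change of the members ran from -0.17 to 0.06 over left-out libraries, and from -0.11 to -0.04 under the others. With the replicate block it was -0.11, with 0 of 8 members and 2 genes called; same-numbered libraries had deviations correlated at 0.14, 0.00 and -0.09, so the numbers were not taken as pairs. Gimap7 stayed below 0 throughout, between -0.93 and -0.52 (adjusted p 0.761 to 0.9999), and had an unadjusted p under 0.05 with limma and without mutant replicate 2. Directions near 0 turned, with the cause not tested. Over left-out libraries the log2 fold change ran from -0.21 to 0.086 for Gimap8, from -0.11 to 0.20 for Gimap4, from -0.061 to 0.061 for Gimap5, from -0.72 to 0.062 for Gimap3, from -0.16 to -0.058 for Gimap1, from -0.18 to -0.012 for Gimap6 and from 0.053 to 0.25 for Gimap9. Gimap8 and Gimap5 turned without mutant replicate 3 or wild-type replicate 1, Gimap3 without mutant replicate 3, and Gimap4 without mutant replicate 1 or 2 or wild-type replicate 3. Among libraries without Y-linked reads Gimap5 had 0.0098. Over all genes, 3 were called by edgeR, 44 by DESeq2 and 2 to 6 with a library left out, the 6 without mutant replicate 2. Depth limits Gimap7 most, at 48 to 130 reads.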
